A study of Mus musculus with 23 samples.

Results

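A spliced alignment is a sequenced RNA fragment whose letters lie in separate pieces of the genome, so that it bridges the gap that an intron leaves between exons. Such alignments were collected from 10 libraries made by ultraviolet crosslinking and immunoprecipitation (CLIP-seq) in mouse embryonic stem cells. An alignment was taken as spliced where its genomic span was over 60 nt and at most 20000 nt, and where it lay neither on the mitochondrial chromosome nor on the contig chrRibo. Alignments with the same chromosome, start, end and strand counted once per library. This rule chose 6572 of 366484 distinct alignments, or 1.79%. They occupied 4989 positions, which formed 3693 loci when overlapping spans on a strand were joined.

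All libraries came from line v6.5. The cells were kept off their feeder fibroblasts for 24 hours, then irradiated at 254 nm with 400 mJ/cm2. RNA was recovered either with control IgG or with an antibody against Upf1 from cells given no drug or given cycloheximide for 2 hours at 100 µg/ml. Each antibody had 3 untreated libraries, named A1, A2 and I, and 2 with cycloheximide, named A1 and A2. Cycloheximide halts ribosomes during elongation. IgG serves as the background of each measurement. Whether the libraries of a group came from separate cultures is not given in the sources used here. The p-values therefore cover only the spread between libraries, which may be technical.

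Introns are removed in the nucleus, and a fragment that crosses an exon-exon junction therefore comes from RNA that had already been spliced there. Splicing leaves an exon junction complex upstream of each junction, and ribosomes displace it as they translate the coding sequence. Upf1 is an RNA helicase required for nonsense-mediated decay, in which an exon junction complex downstream of a stop codon promotes destruction of the mRNA. Cycloheximide blocks this decay because the pathway depends on translation.

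Several libraries held the same molecules, taken as an alignment with the same 2 random letters. Of spliced molecules, 80.8% in IgG untreated A2, 83.1% in IgG cycloheximide A1 and 85.7% in IgG cycloheximide A2 also occurred in another library. The share was 36.7% in Upf1 cycloheximide A1, 43.7% in Upf1 cycloheximide A2 and 35.1% in Upf1 untreated A2. It was at most 1.89% in the other 4 libraries. IgG cycloheximide A2 shared 352 spliced molecules with Upf1 cycloheximide A1 and 370 with Upf1 cycloheximide A2, across antibodies. Of all other molecules, 82.2% in IgG untreated A2, 81.6% in IgG cycloheximide A1 and 85.3% in IgG cycloheximide A2 were shared. Libraries that share molecules are not independent, so the p-values below may be too small. Values without shared molecules are given for the rate of spliced alignments and for the calls of loci. Results by span length and those that use unspliced alignments are given with shared molecules only. The commonest length of unspliced reads was 34 nt in 3 untreated libraries (A1 and I of Upf1, I of IgG) and 38 nt in the other 7, so read length moved with treatment.

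The first comparison asked whether the recovery of spliced RNA changed when translation was blocked. In the Upf1 libraries spliced alignments rose from 9.30 ± 1.36 (SD, n = 3) to 40.1 ± 4.96 (SD, n = 2) per 1000 distinct alignments. In the IgG libraries they went from 11.3 ± 6.34 (SD, n = 3) to 48.3 ± 9.46 (SD, n = 2) per 1000. The ratio was 4.31 for Upf1 and 4.29 for IgG. Counts were 1059, 179 and 740 spliced alignments in Upf1 untreated A1, A2 and I, from 97651, 20449 and 89206 distinct alignments. They were 1386 of 31792 and 1252 of 34220 in Upf1 cycloheximide A1 and A2. In IgG they were 50 of 10299, 145 of 8271 and 543 of 47670 without drug, and 397 of 7215 and 821 of 19711 with it.

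By library, the Upf1 values without drug were 10.8, 8.75 and 8.30 per 1000 in A1, A2 and I, and those with cycloheximide were 43.6 and 36.6 in A1 and A2. The IgG values were 4.85, 17.5 and 11.4 without drug and 55.0 and 41.7 with it. All 4 cycloheximide libraries lay above all 6 untreated ones, and among untreated libraries IgG covered a wider range than Upf1. The difference over both antibodies was 33.9 per 1000 (exact two-sided permutation p = 0.01 within antibody, the smallest that 100 arrangements allow, adjusted p = 0.0429). The adjustment includes the span classes below, which are parts of this rate and also reach 0.01, and this lowers the adjusted p. Within Upf1 the difference was 30.8 and within IgG 37.1, each with an exact permutation p of 0.1, the smallest that 3 against 2 libraries allow. The change in Upf1 minus that in IgG was -6.29 per 1000 (exact permutation p = 0.583), and Upf1 minus IgG over all libraries was -4.48 (exact permutation p = 0.651). These are shares of the RNA recovered, so more spliced fragments and fewer of the others cannot be told apart.

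**Figure D1:**
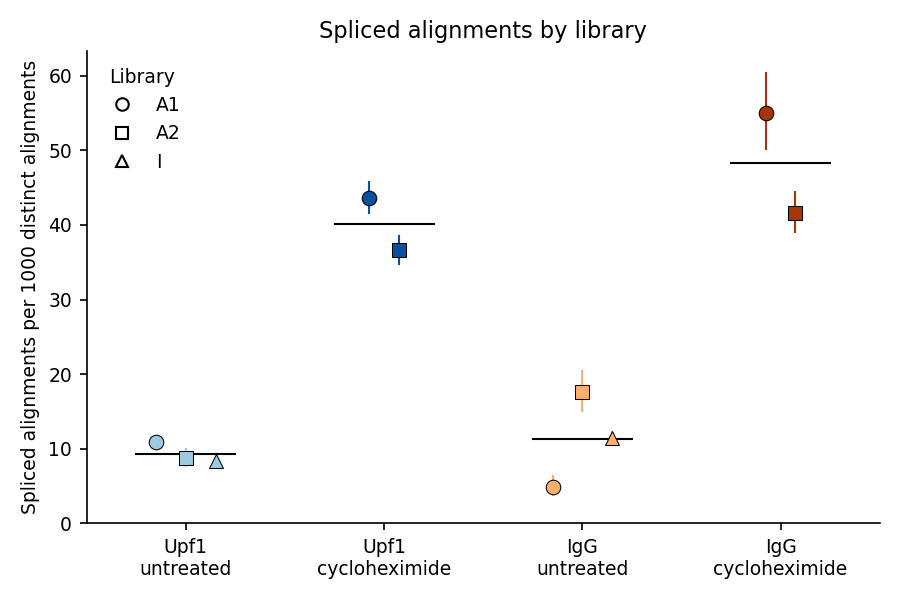
Spliced alignments per 1000 distinct alignments (vertical axis) in each library, by group. Points are libraries with 95% Wilson intervals (counting error only), and lines are group means. The 4 cycloheximide libraries lie between 36.6 and 55.0, above the untreated libraries at 4.85 to 17.5.

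The gap between treatments was also present when shared molecules were left out. The values were then 10.8, 7.92 and 8.38 per 1000 in Upf1 untreated A1, A2 and I, and 38.7 and 32.0 in Upf1 cycloheximide A1 and A2. In IgG they were 4.91, 18.1 and 12.0 without drug and 50.2 and 41.3 with it, although IgG cycloheximide A1 and A2 kept only 67 and 121 spliced alignments. Among the 7 libraries with 38 nt reads the difference was 34.2 per 1000 (exact permutation p = 0.0556, the smallest possible there). By chromosome, the ratio of cycloheximide to untreated rates ran from 2.94 on chromosome 14 to 5.84 on chromosome 1, leaving aside chromosome Y with 1 locus. Over all libraries pooled, chromosome 7 held the most spliced alignments per 1000 of the autosomes and X, at 24.9, and chromosome 13 the fewest, at 12.7. With cycloheximide alone chromosome 1 was highest, at 53.6 against 48.6 for chromosome 7.

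Spans covered a wide range of lengths. The median span was 1111.5 nt with quartiles of 388 and 2602 nt, and 52.8% of spliced alignments spanned over 1000 nt. The shortest spans were 79 and 90 nt, so few alignments lay near the lower limit, and only 8 alignments of 39 to 60 nt fell below it. The longest member spanned 19995 nt. Another 780 alignments had spans over the upper limit, starting at 20030 nt.

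Spliced alignments rose with cycloheximide at every span length. The difference over both antibodies was 4.14 per 1000 for spans up to 200 nt, 12.0 for those up to 1000 nt, 14.4 for those up to 5000 nt and 3.38 for those above 5000 nt, each class starting where the one before it ended. The ratios of treated to untreated means were 4.15, 4.66, 4.39 and 3.35. Each had an exact permutation p of 0.01 and an adjusted p of 0.0429. The classes are parts of the same total, so they are not separate support. The adjusted p depends on how many of the 30 tests reach 0.01, so the classes also lower it for the other measures. The 4 classes held 827, 2272, 2671 and 802 alignments.

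**Figure D2:**
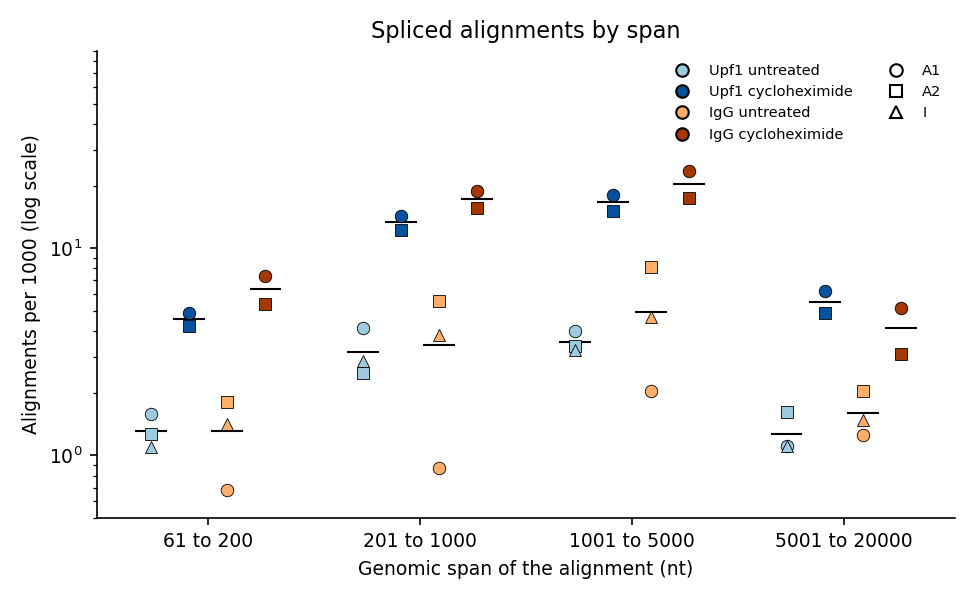
Spliced alignments per 1000 distinct alignments (log scale) in 4 classes of genomic span in nt. Points are libraries, coloured by group, and lines are group means. In each class the cycloheximide libraries lie above the untreated ones, with differences of 3.38 to 14.4 per 1000.

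The make-up by span length changed less. Spans over 1000 nt made up 47.1%, 57.0% and 52.2% in Upf1 untreated A1, A2 and I and 55.9% and 54.8% in Upf1 cycloheximide A1 and A2. In IgG they made up 68.0%, 57.9% and 54.1% without drug and 52.1% and 49.5% with it. The untreated and cycloheximide ranges overlapped in Upf1 and not in IgG, where the highest value rested on the 50 alignments of untreated A1. Over both antibodies cycloheximide minus untreated was -2.98 percentage points (exact permutation p = 0.49), and Upf1 minus IgG was -2.94 points (exact permutation p = 0.508). Library medians of the span ran from 932 nt in Upf1 untreated A1 to 1241 nt in Upf1 cycloheximide A1, apart from 2280 nt in IgG untreated A1.

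No annotation of this build was used, so the gaps were checked against the read lengths instead. A fragment that crosses a fixed intron keeps its span when it slides along the junction, and its span exceeds the intron by the number of bases sequenced. Alignments of a locus were grouped as 1 junction where starts and ends each lay within 38 nt of another member. This gave 3870 junction groups, 1311 of which held at least 2 alignments. In 718 of the 1311 all spans were identical. These include any group with a single position seen in several libraries, whose spans are identical by definition. Such groups were not counted apart, and 1133 positions occurred in 2 or more libraries, so the count alone does not show a fixed span. Within groups the starts ranged over at most 28 nt and the ends over at most 32 nt, while the spans ranged over at most 19 nt.

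Both read lengths occurred in 173 junction groups with 874 alignments. Of the 287 alignments from 34 nt libraries, 154 (53.7%) had a span exactly 4 nt below the longest of their group, the difference between the read lengths. Another 92 equalled the longest span. Of the 587 alignments from 38 nt libraries, 241 (41.1%) equalled the longest span, 40 (6.81%) lay 4 nt below it and 225 (38.3%) lay further below. Shortened fragments were thus common in the 38 nt libraries.

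**Figure D3:**
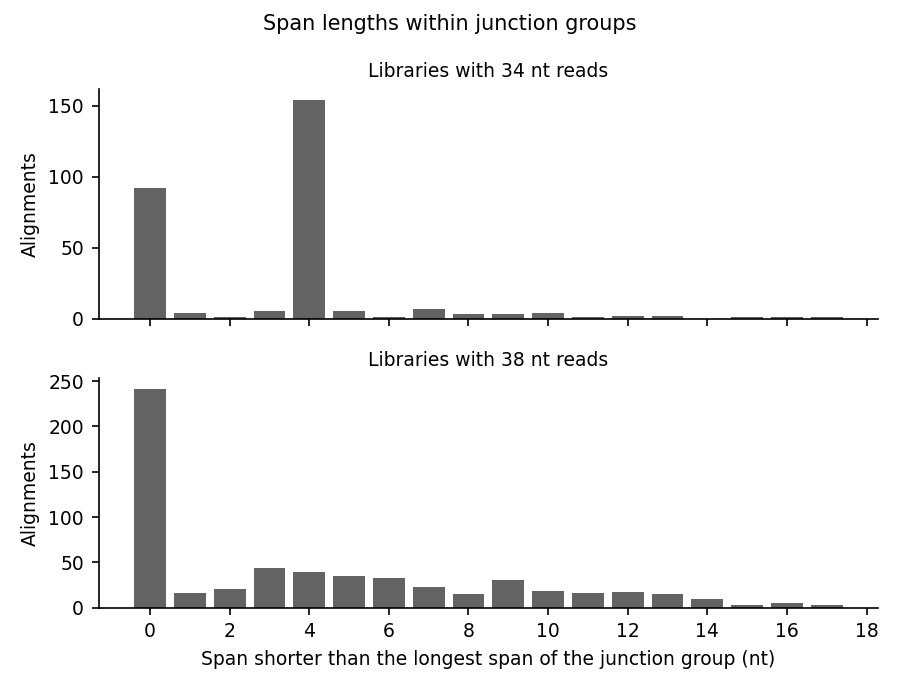
Number of spliced alignments (vertical axes) by how many nt their span fell short of the longest span in their junction group, for libraries with 34 nt reads (top) and 38 nt reads (bottom). A group had to hold both read lengths (173 groups). The upper panel peaks at 4 nt with 154 alignments, the lower at 0 with 241.

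The longest span of a junction group was exactly 4 nt greater in its 38 nt libraries than in its 34 nt libraries in 86 of the 173 groups (49.7%). It was equal in 4 groups, greater in the 34 nt libraries in 68 and differed otherwise in 15. The step was thus present in many junctions but not in all.

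The fullest junctions showed both the step and the shortened fragments. The fullest lay on the minus strand of chromosome 7, at 118222041 to 118222831, with 32 alignments at 19 positions in 9 libraries. Its longest span was 773 nt in the 34 nt libraries (10 of 13 alignments) and 777 nt in the 38 nt libraries (5 of 19), where the other 14 spanned 761 to 773 nt. On the plus strand of chromosome 19, at 8799717 to 8800004, the longest spans were 262 nt (13 of 15 alignments) and 266 nt (3 of 7), and the others were shorter. On the plus strand of chromosome 16, at 23110777 to 23111231, all 7 alignments of the 34 nt libraries spanned 436 nt. Of the 11 from 38 nt libraries 7 spanned 440 nt and 4 spanned 427 to 435 nt, and IgG cycloheximide A1 held only such shorter ones.

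Most loci were seen once. Of the 3693 loci, 2369 (64.1%) held 1 alignment, 1180 held 2 to 4, 124 held 5 to 9 and 20 held 10 or more. The 20 fullest loci held 372 alignments, or 5.66% of the total, and the fullest held 70. A locus was hit in 1 library in 2532 cases, in 2 libraries in 647 and in 3 or more in 514. None was hit in all 10, and IgG untreated A1 held none of the 10 fullest. Loci were a median of 1275 nt wide, and 3577 (96.9%) held a single junction group.

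Loci were spread evenly over the strands, with 1889 on the plus and 1804 on the minus strand. Only 34 (0.921%) overlapped a locus on the opposite strand. Unspliced alignments inside the loci numbered 9133 on the locus's own strand and 544 on the opposite one, 16.8 times fewer.

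Loci gathered in chains. A chain joined loci of a strand at most 5000 nt apart, as successive introns of a transcript would lie. There were 456 chains of 2 or more loci, which held 1143 loci (31.0%), and 18 chains of 5 or more. Of the 687 gaps inside chains, the median was 780 nt and 256 (37.3%) were at most 300 nt.

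The longest chain covered 23311 nt on the minus strand of chromosome 1 (positions 155306578 to 155329888), with 10 loci and 17 alignments. It held 0, 0 and 2 alignments in Upf1 untreated A1, A2 and I, and 5 and 7 in Upf1 cycloheximide A1 and A2. IgG held none without drug and 1 and 2 with it. In Upf1 this was 0.965 of every 100000 alignments without drug and 18.2 with it. The chain was chosen by its number of loci, and most of its alignments came from cycloheximide libraries. These rates are therefore a description only. On the plus strand of chromosome 3, positions 102833128 to 102862850 held 8 loci and 26 alignments. A chain of 6 loci on the minus strand of chromosome 7 (118217452 to 118225030) held the most, 81 alignments. Per 100000 alignments Upf1 went from 2.41 to 19.7 at the chromosome 3 chain and from 17.4 to 34.8 at the chromosome 7 chain. At a chain of 6 loci on the minus strand of chromosome 15 (96520637 to 96525873) it went from 2.41 to 1.51, on 5 and 1 alignments.

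Few loci were common to the treatments. Cycloheximide libraries hit 1803 loci with 3856 alignments, and untreated libraries hit 2201 with 2716. Both hit 311, which was 17.2% of the cycloheximide loci and 14.1% of the untreated loci. Upf1 hit 3162 loci and IgG 1422, of which both hit 891, or 62.7% of the IgG loci and 28.2% of the Upf1 loci. All 4 groups hit 32. With most loci seen once, the overlaps depend on depth, and for such loci a missing hit does not show absence. A molecule shared between libraries of 2 groups also makes its locus common to them. Of the spliced alignments, 129 of 145 in IgG untreated A2 and 120 of 179 in Upf1 untreated A2 lay in the 311 loci. In Upf1 untreated A1 and I these were 173 of 1059 and 105 of 740, and in IgG untreated A1 and I 3 of 50 and 64 of 543.

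Repeated hits within a library were commonest in Upf1 cycloheximide A1, which also held the most spliced alignments (1386). There 23.5% of loci had at least 2 distinct alignments, against 19.2% in Upf1 cycloheximide A2. The shares were 9.39%, 21.1% and 5.77% in Upf1 untreated A1, A2 and I. In IgG they were 21.1%, 3.57% and 7.26% without drug and 6.89% and 7.56% with it. The shares did not follow the treatment, since Upf1 untreated A2 and IgG untreated A1 matched the Upf1 cycloheximide libraries. Among 145 alignments drawn from a library, which sets depth equal, the expected number of loci was 140 or 141 in 8 libraries. Upf1 cycloheximide A1 was among these, so its high share was not seen at equal depth. The number was 120 in Upf1 untreated A2, and IgG untreated A1, with 38 loci, held too few alignments.

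The fullest loci differed in which libraries held them. The fullest, chromosome 7 bases 118219136 to 118222831 (minus strand), held 15, 6 and 11 alignments in Upf1 untreated A1, A2 and I and 9 and 11 in Upf1 cycloheximide A1 and A2. In IgG it held 0, 2 and 5 without drug and 3 and 8 with it. It contained 9 junction groups and 158 unspliced alignments. Per 100000 alignments Upf1 went from 15.4 to 30.3, 1.96 times as much (95% counting interval 1.06 to 3.54), which did not pass the test (log2 change 0.77, adjusted p = 0.39, limma-voom).

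The next, chromosome 19 bases 8799519 to 8800754 (plus strand), held 11, 2 and 13 alignments in the untreated Upf1 libraries and 5 and 2 in those with cycloheximide. In IgG it held 0, 1 and 3 without drug and 4 and 5 with it. It was the only tested locus whose Upf1 rate was not higher with cycloheximide (ratio 0.846, interval 0.31 to 2.00; adjusted p = 0.81, limma-voom). Its share of spliced alignments alone fell by 2.29 on the log2 scale in Upf1 (SE 0.595, adjusted p = 0.00388, limma-voom with spliced totals).

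The third locus was empty in untreated Upf1 libraries. Chromosome 1 bases 59763578 to 59768118 (plus strand) held 0, 0 and 0 alignments there and 6 and 9 with cycloheximide. In IgG it held 0, 1 and 1 without drug and 2 and 5 with it. The fourth, positions 162966141 to 162967442 on the same strand, held 7, 0 and 3 in untreated Upf1 libraries and 4 and 2 with cycloheximide, with IgG at 0, 0 and 3 and at 3 and 2. Per 100000 alignments the Upf1 treatments overlapped (7.17, 0 and 3.36 against 12.6 and 5.84), while IgG was higher with cycloheximide in both libraries (0, 0 and 6.29 against 41.6 and 10.1).

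The fifth, chromosome 6 bases 51411403 to 51416153 (minus strand), held 2, 1 and 2 alignments in Upf1 without drug and 11 and 3 with it, and at most 2 in any IgG library. It had 9 junction groups and 94 unspliced alignments. Of these, 14, 7 and 31 were in untreated Upf1 libraries and 9 and 5 in those with cycloheximide. In IgG they were 0, 3 and 16 without drug and 2 and 7 with it. By contrast the sixth, on chromosome 16 (23110777 to 23111231, plus strand), was a single junction group with 1 unspliced alignment. It held 5, 1 and 2 alignments in untreated Upf1 and 3 and 2 with cycloheximide, and in IgG 0, 0 and 0 and then 2 and 3.

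The seventh, chromosome 17 bases 45707460 to 45708833 (minus strand), held 3, 0 and 0 spliced alignments in Upf1 without drug and 4 and 5 with it, and in IgG only 4, all in cycloheximide A2. Its unspliced alignments were also more numerous with cycloheximide, with 2, 0 and 3 in untreated Upf1 libraries and 37 and 33 with the drug. In IgG its unspliced alignments were 0, 2 and 4 without drug and 15 and 25 with it. The spliced and unspliced fragments of this locus were both more frequent with cycloheximide. At some of the other loci unspliced alignments were nearly absent. At the chromosome 6 locus they were not more frequent in Upf1 with cycloheximide.

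The last of the 10 were held mostly by cycloheximide libraries. Chromosome 1 bases 63225117 to 63225421 (plus strand) held 8 and 3 alignments in Upf1 and 3 and 1 in IgG with cycloheximide, and none without. Chromosome 4 bases 46484309 to 46484979 (plus strand) held 3 and 5 in Upf1 with cycloheximide and 1 without, and no unspliced alignment. Chromosome 2 bases 157104843 to 157121014 (plus strand), the widest of the 10, held 2 and 3 in Upf1 with cycloheximide and 2 without, both in A2. IgG held 0, 1 and 0 at each of these 2 loci without drug, and with it 0 and 4 on chromosome 4 and 2 and 3 on chromosome 2.

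**Figure D4:**
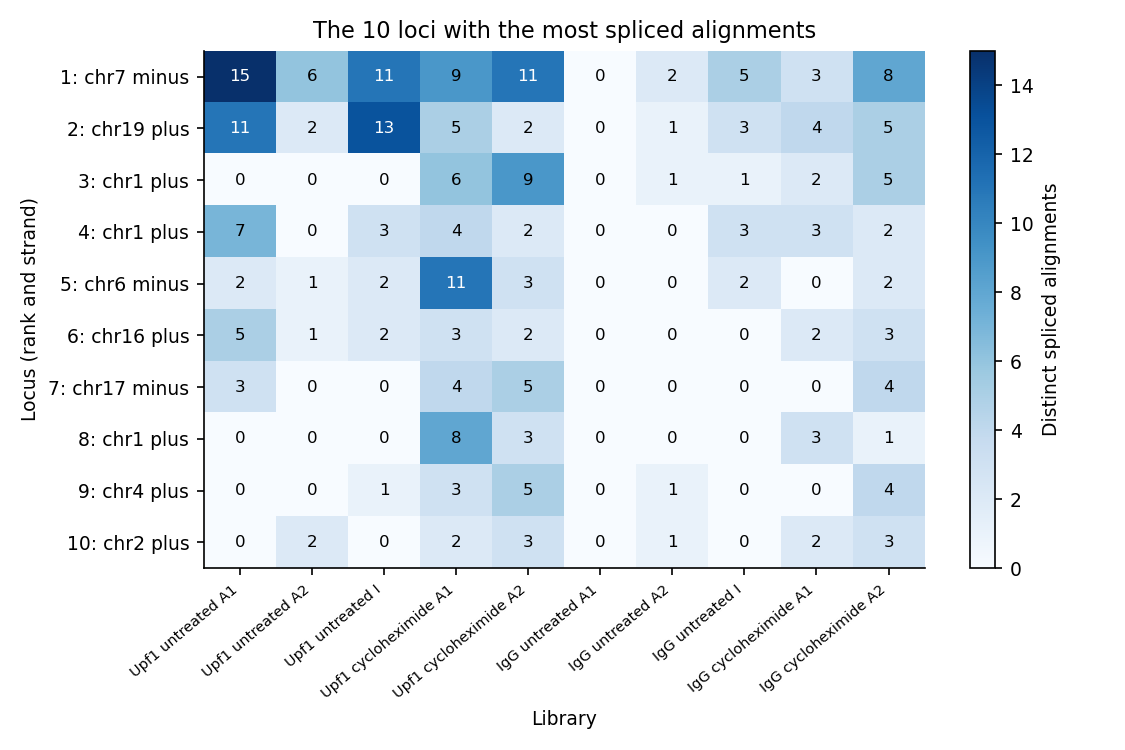
Distinct spliced alignments (colour and number) in each library (columns) at the 10 loci with the most alignments, ranked from the top, with chromosome and strand. The first locus is held by 9 libraries and the third by none of the untreated Upf1 libraries, and IgG untreated A1 is at 0 throughout.

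The 20 loci with at least 10 alignments in at least 3 libraries were tested, scaled to all distinct alignments. This filter summed over treatments whose spliced rates differ, and it chose loci by the values then compared. Only 3 of the 20 held 10 alignments in the untreated libraries alone, 15 did so in the cycloheximide libraries alone, and 4 held no untreated alignment. The other 17 needed their cycloheximide alignments to be tested, so the calls at them are given as a description and support nothing on their own. With cycloheximide 14 were higher and 0 lower in Upf1 (limma-voom, adjusted p under 0.05), which is 70% and 0% of all loci tested. In IgG 12 (60%) were higher and 0 (0%) lower, and 10 of these were also called in Upf1. All 14 of the Upf1 calls and 11 of the 12 IgG calls fell among those 17 loci. Of the 3 with 10 untreated alignments, only the chromosome 19 locus was called, in IgG, with 9 alignments against 4, and 1 of the 9 was left without shared molecules. The change in Upf1 minus that in IgG was called at 0 loci in either direction (0%), and limma with a trended prior also called 0. At an unadjusted p under 0.05 it was higher at 0 loci and lower at 1.

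These calls depended on the scaling. Scaled to spliced totals, no locus was called higher with cycloheximide in either antibody, and the chromosome 19 locus was called lower in Upf1. By unadjusted p-values under 0.05, 2 were higher and 2 lower in Upf1 and 0 in IgG in either direction. The second of those lower was the fullest locus on chromosome 7 (log2 change -1.22, adjusted p = 0.117, limma-voom). With TMM scaling (the trimmed mean of M values) 10 were higher in Upf1 and 0 in IgG. Leaving out shared molecules, the called loci kept 64 of 107 cycloheximide alignments in Upf1 but 7 of 64 in IgG, where 5 of the 12 kept none. Leaving out a library also changed how many loci passed the filter. Without IgG untreated I 0 of 20 were called in IgG, and without IgG cycloheximide A1 0 of 13. In Upf1 5 of 18 were called without Upf1 untreated I and 5 of 10 without Upf1 cycloheximide A2. The Upf1 count was 6 of 13 without Upf1 cycloheximide A1. With IgG cycloheximide A1 or A2 left out it was 8 of 13 or 9 of 15. The IgG count was 7 of 10 without Upf1 cycloheximide A2 and 6 of 20 without IgG untreated A1.

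The loci ranked first by p in Upf1 were mostly those without alignments in its untreated libraries. They met the filter through the group in which they were high, so their values are a description. Folds there were computed as if the untreated group held 3 counts in all. They leave out the counting error of the cycloheximide alignments, so they are not limits of an interval. The third locus above, on chromosome 1 (59763578 to 59768118), was 15.7-fold higher on this basis, with 15 alignments against 0 in Upf1. That at 63225117 to 63225421 on chromosome 1 was 11.5-fold higher, with 11 against 0. On plus strands, 131238053 to 131240044 of chromosome 8 and 13614096 to 13615035 of chromosome 7 were each 8.37-fold higher, with 8 against 0. The chromosome 4 locus held 8 against 1, 25.1 times its untreated rate (counting interval 3.37 to 1115). Fitted changes at such counts depend on the offset of 0.5, which equals 6.93 of every 100000 alignments in the smallest library and 0.512 in the largest.

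The IgG loci ranked first had passed in the same way. The first was chromosome 17 bases 45705489 to 45705821 (minus strand), with 7 alignments against 0. This was 5.74-fold higher on the same basis, and all 10 alignments of the locus were from cycloheximide libraries. Only 1 of the 7 remained without shared molecules. Chromosome 12 bases 112780029 to 112780396 (plus strand) held 6 against 0, 4.92-fold on this basis, and none of these remained. The chromosome 16 locus and a plus-strand locus of chromosome 3 (41397867 to 41400565) each held 5 against 0, 4.10-fold on this basis. The chromosome 2 locus held 5 against 1, 12.3 times its untreated rate (interval 1.38 to 582).

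Upf1 and IgG were then compared with treatment in the model, to ask which junctions were recovered with Upf1 beyond the background. No locus was higher in Upf1 (0%) and 1 (5%) was lower, and the counts at an unadjusted p under 0.05 were 0 and 5. The offset of 0.5 weighs more in the IgG libraries (7215 to 47670 distinct alignments) than in Upf1 (20449 to 97651). An empty locus thus scores lower in Upf1. Only 3 of the 20 log2 ratios were positive, and 1 of 3693 with no filter. The contrast leans towards IgG and cannot show that no junction exceeded the background. The locus called lower was positions 45705489 to 45705821 on chromosome 17, with a log2 ratio of -2.13 ± 0.69 (SE, adjusted p = 0.0479, limma-voom). With cycloheximide it held 1 and 2 alignments in the Upf1 libraries and 3 and 4 in the IgG libraries, and it held none without drug. No locus was called under TMM scaling, under the trended prior or without shared molecules, or with any 1 of 8 libraries left out. Without IgG untreated I, 6 were called lower. The highest log2 ratios of Upf1 to IgG were 0.19 at the fullest locus on chromosome 7, 0.04 at positions 97526832 to 97539657 on chromosome 11 and 0.00 at the chromosome 6 locus.

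Unspliced alignments at the same places were set beside the spliced ones. Those inside a locus can lie in an intron or, where junctions overlap, in an exon, and those within 100 nt outside a locus lie next to its outermost junctions. Inside the loci they made up 20.5, 19.6 and 27.4 per 1000 unspliced alignments in Upf1 untreated A1, A2 and I and 28.6 and 27.5 with cycloheximide. In IgG they were 11.0, 38.4 and 28.4 without drug and 39.2 and 37.6 with it. The difference over both antibodies was 9.01 per 1000 (exact permutation p = 0.12).

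Beside the loci unspliced alignments rose nearly as much as spliced ones. They were 6.53, 5.53 and 4.80 per 1000 in the untreated Upf1 libraries and 21.4 and 17.2 with cycloheximide, and in IgG 2.92, 12.4 and 7.27 without drug and 36.2 and 26.4 with it. All 4 cycloheximide libraries lay above all untreated ones. The difference was 18.7 per 1000, a ratio of 3.85 (exact permutation p = 0.01, adjusted p = 0.0429), and its size in Upf1 minus that in IgG was -10.2 (exact permutation p = 0.283).

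The loci were made from the spliced alignments of all libraries, so each library helped to choose the places where it was measured. With loci from Upf1 untreated A1 and I alone, the other 8 libraries gave 3.32 per 1000 beside the loci in Upf1 untreated A2 and 9.37 and 7.49 in Upf1 cycloheximide A1 and A2. IgG gave 0.833, 5.36 and 4.32 without drug and 16.5 and 12.2 with it. The difference was 7.99 per 1000 (exact permutation p = 0.0333, the smallest these 8 libraries allow). Inside those loci it was 3.26 per 1000 (exact permutation p = 0.367).

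Spliced alignments per 100 unspliced ones inside the loci were higher with cycloheximide. Their numerator is the count already used in the rate of spliced alignments, so they are not separate support for its rise. The values were 54.2, 45.8 and 30.9 in Upf1 untreated A1, A2 and I and 162 and 140 with cycloheximide. IgG gave 47.2, 48.2 and 42.1 without drug and 152 and 118 with it. The untreated libraries of the antibodies overlapped, as did those with cycloheximide. The difference was 98.5 (ratio 3.20, exact permutation p = 0.01, adjusted p = 0.0429), and its size in Upf1 minus that in IgG was 18.1 (exact permutation p = 0.45). At the 311 loci hit in both treatments it was 49.7 (exact permutation p = 0.31), where the values of Upf1 untreated A2 and IgG untreated A2 were 171 and 215.

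Set against unspliced alignments beside the loci, the change in spliced ones did not pass the test. There were 170, 163 and 177 per 100 in Upf1 untreated A1, A2 and I and 217 and 225 with cycloheximide, but 179, 149 and 165 in IgG without drug and 165 and 169 with it. The difference over both antibodies was 26.8 (ratio 1.16, exact permutation p = 0.04, adjusted p = 0.133). At the 311 loci hit in both treatments it turned to -60.6 (exact permutation p = 0.73). There Upf1 untreated A2 and IgG untreated A2 gave 632 and 759, on only 19 and 17 unspliced alignments beside the loci. The other untreated libraries gave 100 to 169 and the cycloheximide libraries 200 to 346. A locus entered this set only if both treatments hit it, so the sign depends on that choice and on the untreated A2 libraries. Over all loci the ranges did not overlap in Upf1 and overlapped in IgG. The difference of these changes was not past the threshold (48.7, exact permutation p = 0.233).

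**Figure D5:**
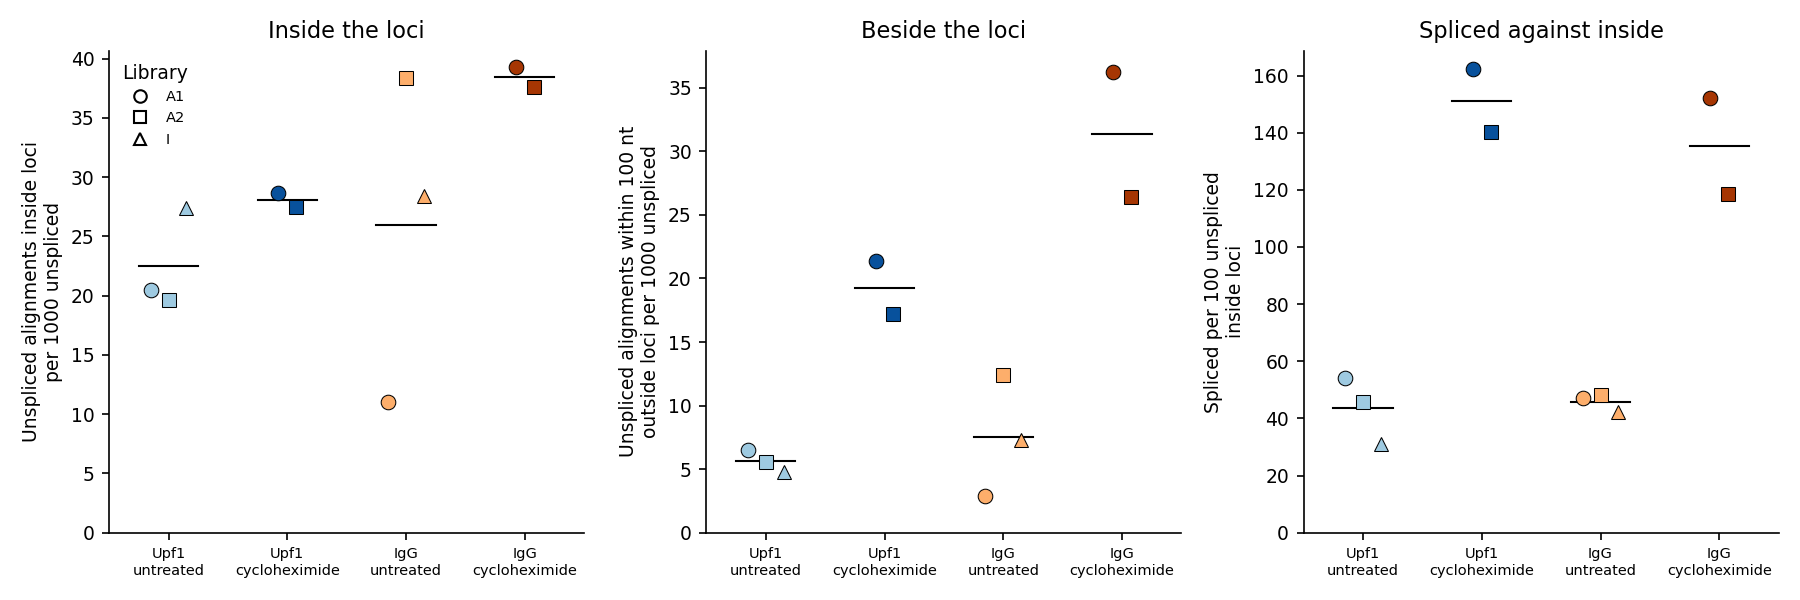
Unspliced alignments inside loci (left) and within 100 nt outside them (middle), each per 1000 unspliced alignments, and spliced alignments per 100 unspliced ones inside loci (right). Points are libraries and lines group means. Over all libraries the treatments overlap inside the loci and separate beside them (17.2 to 36.2 against 2.92 to 12.4).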

How the data were processed

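The authors deposited 1 list of alignments per CLIP library on mouse build mm9. Per the submitters' processing notes TopHat 1.4.0, Cufflinks 1.3.0 and Bowtie 0.12.6 were used, without stating which made these lists. The deposited score column held 255 in every line and was not used. The name column gave the 2 random letters. Lines (833047) were reduced to distinct alignments. The files hold no count table, so locus tallies were tested with limma-voom (limma 3.58.1, R 4.3.3), in a model of the 4 groups or of antibody and treatment, with Benjamini-Hochberg adjustment and an offset of 0.5. TMM factors (trims of 30% and 5%) were one alternative. The test was also run on simulated data, but the outcome is not given here, so no result rests on it. Library measures were computed in Python 3.11.15 and compared by exact two-sided permutation, adjusted over 30 tests. These include tests of the span classes, which are parts of the spliced rate. They also include ratios of spliced to unspliced alignments, which use the same count of spliced alignments as that rate. Intervals cover counting error only. Loci named were the 10 with the most alignments and, per contrast, those past the threshold with the 5 lowest p-values in each direction, or 3 where none passed. Members, measures and rules were chosen with earlier results of these data known. No genome or annotation of mm9 was used, so loci have no gene names or sequences and markers of the cell type were not checked. The 10 mRNA-seq and 3 ribosome footprinting samples were not analysed here. Replicate names were not taken as pairs. Correlations of same-named libraries over 144 loci ran from -0.0785 to 0.293. Differently named libraries were not correlated for comparison, so this range cannot show whether pairs exist. Some same-named libraries were tied by shared molecules. IgG untreated A2 shared 52.7% of its spliced molecules with IgG cycloheximide A2, 52.1% with Upf1 cycloheximide A2 and 26.9% with Upf1 untreated A2. It shared at most 1.80% with any A1 library.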

Additional observations from a re-analysis of the deposited data

Results flagged for a closer look

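The change with cycloheximide in the share of spliced alignments spanning over 1000 nt had opposite signs in the antibodies. It was 3.27 percentage points in Upf1 and -9.23 points in IgG, a difference of 12.5 points (exact permutation p = 0.0333, adjusted p = 0.125), which did not pass the adjusted threshold. IgG untreated A1 contributed 50 alignments to it.

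Alignments spanning over 20000 nt, outside the limits used here, were most frequent in the Upf1 cycloheximide libraries, at a mean of 6.69 per 1000. The values were 6.92 and 6.46 there, 0.727, 2.98 and 0.706 in Upf1 untreated A1, A2 and I, and 3.59, 0.605 and 0.860 in those of IgG. With cycloheximide the IgG libraries gave 2.77 and 2.08. Of their 780 alignments, with a median span of 70060 nt, 441 came from Upf1 with cycloheximide, and 42 of 727 positions occurred in 2 or more libraries. The change in Upf1 minus that in IgG was 4.48 per 1000 (exact permutation p = 0.117).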

How the results depend on the processing

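The rise of spliced alignments per 1000 with cycloheximide over both antibodies was 34.2 in the 38 nt libraries (exact permutation p = 0.0556) and 33.7 with a replicate block (exact permutation p = 0.125), designs that cannot reach the threshold, and 30.6 to 37.3 when 1 library was left out. For spliced per 100 unspliced inside loci these settings gave 96.5, 94.4 and 90.1 to 107, and loci hit in both treatments 49.7. Upf1 minus IgG in that measure turned to -10.4 for spans of at most 5000 nt and to -0.406 for loci hit in both treatments, and ran from -13.8 to 22.7 with 1 library left out. Upf1 minus IgG per 1000 ran from -9.97 to 2.76. Spliced per 100 beside loci turned to -60.6 for loci hit in both treatments. There Upf1 untreated A2 and IgG untreated A2 gave 632 and 759. The cause was not tested. Cycloheximide minus untreated per 1000 ran from 27.3 to 34.3 in Upf1 and from 30.4 to 43.8 in IgG with 1 library left out. For the share over 1000 nt, it ran from -4.45 to -0.987 and Upf1 minus IgG from -4.66 to -0.0221.

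Counts of called loci moved most. For cycloheximide in Upf1 (14 of 20) they were 1 lower with spliced totals, 67 of 144 with at least 5 alignments in at least 2 libraries (with spliced totals 1 lower), 2 of 3693 with no filter, 0 with every line counted, 4 of 8 without shared molecules and 5 to 14 with 1 library left out. For IgG (12 of 20) they were 0 with spliced totals (also over 144 loci), 0 with TMM, 6 with a trended prior, 1 of 144, 0 of 3693, 6 of 8, 7 with the replicate block and 0 to 13. For Upf1 against IgG (1 lower) they were 0 with spliced totals, TMM, a trended prior, 144 loci, every line or no shared molecules, 696 lower of 3693 with no filter, 3 lower with the block and 0 to 6. With no filter only 1 of the 3693 log2 ratios was positive, the offset weighing more in the smaller IgG libraries. The difference of the cycloheximide effects was called at 0 loci in every setting run. The block was not taken as a pairing. Same-named libraries did not all deviate together, but differently named ones were not compared, and the A2 libraries shared molecules. The filter of 10 alignments in 3 libraries set the number of loci tested at 20. With 1 library left out it was 10 to 20, so those counts have different totals.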
